A study of Drosophila melanogaster with 8 samples.

Results

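The genes described here encode structural proteins of the insect cuticle, measured in whole heads of adult male Drosophila melanogaster after feeding of pentylenetetrazole and then sodium valproate. They were chosen by name alone: every gene whose current symbol begins with Cpr and a digit, or with Lcp, Ccp84A, Acp65A, Edg or Twdl. RefSeq lists 124 genes with such symbols (121 protein coding and 3 pseudogenes), and the array annotation named 50 of them among 6793 named genes. These were 32 Cpr genes, 15 Tweedle genes and 3 Lcp or Ccp84A genes (Lcp65Ac, Ccp84Ab and Ccp84Ae). Genes without a named spot were not analysed here.

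Flies were unmated males of the wild-type strain Oregon-R, 3 to 4 days old at the start and kept 30 to a vial. Treated flies ate pentylenetetrazole, a blocker of GABA-A receptors that causes seizures, for 7 days, and then the antiepileptic drug valproate, which also inhibits histone deacetylases, for 3 days. Heads of the day 14 group were taken after 4 further days on normal food (n = 4 arrays), and those of the day 10 group at the end of valproate (n = 4 arrays). On every array, pooled head RNA of treated flies was hybridised against pooled head RNA of control flies that had eaten normal food throughout. Both groups thus had both drugs, so the drugs cannot be told apart, and no flies given 1 drug alone were compared. The doses are not settled: pentylenetetrazole is 8 mg/ml per the labels of the samples but 0.33 mg/ml per the series text, and valproate is 0.33 mg/ml in those labels and 24 mg/ml in that text. The submitters call the 4 arrays of a group biological replicates. P-values here measure the spread between arrays, with 1 estimate shared by both groups.

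The insect cuticle is an extracellular coat of chitin fibres and proteins that epidermal cells secrete on their outer face. Most Cpr, Lcp and Ccp84A proteins share the Rebers-Riddiford domain, which binds chitin, and different members are used at different stages and in hard or flexible cuticle. Tweedle proteins form a separate family, named after the short and stout body of larvae and pupae with mutant TweedleD (TwdlD). In a head, cuticle lines the capsule, the bristles, the mouthparts and foregut and, as the corneal lens, each facet of the eye. The flies had all emerged before treatment, when the adult coat had mostly been laid down.

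All values below are log2 ratios of treated over control RNA, with the median of each array set to 0. A positive value means more RNA in heads of treated flies. They carry no absolute level, and in whole heads fewer cells of a type and less RNA per cell cannot be told apart. In each group, arrays 1 and 2 carried treated RNA in Cy5 and arrays 3 and 4 in Cy3. The deposited ratio was read as Cy5 over Cy3, its likely direction, and the swapped arrays were turned here. If they had been turned before deposit, other values would follow, and the direction would change for 7 of the 20 cuticle genes tested at day 14, 6 of the 34 at day 10 and 3 of the 14 tested in both. Those values are given beside the genes. Of 27648 spots, 40.5% to 52.2% had a value on day 14 arrays and 48.9% to 72.0% on day 10 arrays. The day 10 array of replicate 3 stood apart, with values for 58.0% of named genes, against 82.5% to 86.6% on the other day 10 arrays. The SD of the deposited ratios was 0.33 to 0.43 on day 14 arrays and 0.52 to 0.86 on day 10 arrays. In whole heads of this kind markers of several cell types were present. All 9 named photoreceptor markers, all 4 of neurons and all 8 of glia had a value on at least 1 array. So did all 4 named markers of the male reproductive tract, 5 of 6 of gut and 98.2% of all named genes. This shows only that their spots passed the submitters' filters in some hybridisation.

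Cuticle protein genes were measured on fewer arrays than other genes. Of the 50, 49 had a value on at least 1 array (98%, against 98.2% of all named genes), and only Cpr78E had none. On day 14 arrays 20 of 50 (40%) had values on at least 3 of 4 arrays, against 46.7% of all named genes, and on day 10 arrays 34 of 50 (68%), against 77.0%. Both conditions were met by 14 (28%), against 39.9% of named genes. On all 8 arrays 5 genes (10%) had values, Cpr11B, Cpr47Ee, Cpr67Fa1, TwdlE and TwdlF, against 21.8% of named genes. A blank means a spot that did not pass the submitters' filters on brightness, shape or saturation, so it is neither a level nor an absence.

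The number measured varied between arrays. The day 14 arrays had values for 24, 23, 28 and 24 of the 50 genes, and the day 10 arrays for 39, 39, 19 and 41. The groups overlapped in this count through the day 10 array of replicate 3 alone, which had fewer cuticle genes than any day 14 array. On that array 38% of the cuticle genes had a value, against 58.0% of all named genes. At least 3 values were present at day 14 for 13 of 32 Cpr and 7 of 15 Tweedle genes, and at day 10 for 22 Cpr and 11 Tweedle genes. Of the other 3 genes, Ccp84Ae alone reached 3 arrays, at day 10. The plot of measured shares by array shows cuticle genes below all named genes on 7 of the 8 arrays. Under 3 values in both groups were present for 10 genes: Ccp84Ab, Cpr11A, Cpr64Ad, Cpr65Eb, Cpr67Fa2, Cpr78E, Cpr92F, Lcp65Ac, TwdlK and Twdlalpha. No fitted value is given for these.

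**Figure D1:**
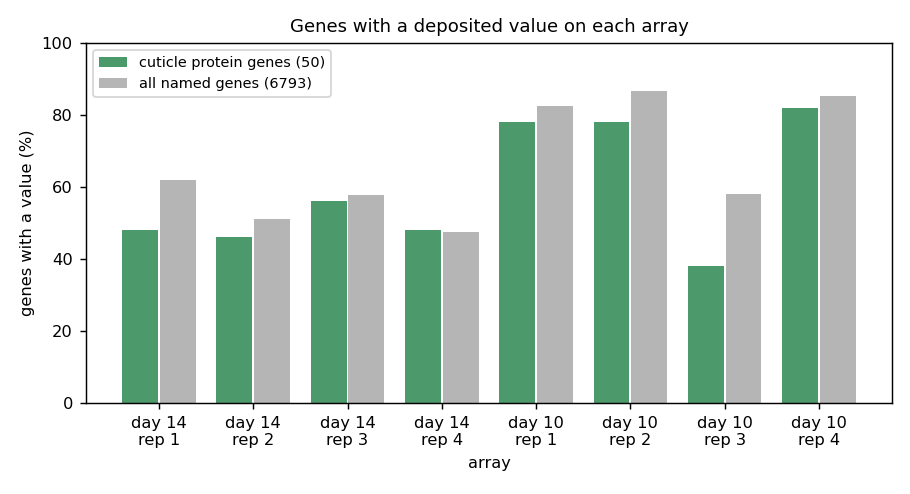
Percent of genes with a deposited value on each array, for the 50 cuticle protein genes (green) and all 6793 named genes (grey), with day 14 arrays left of day 10 arrays. On the day 10 array of replicate 3 the cuticle genes reached 38%, the lowest of the 8 arrays.

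The first comparison asked which genes differed between treated and control heads after return to normal food. The features set beside the cuticle genes are named genes, with their spots averaged, and all other spots taken singly. Named genes made up 3172 of 7529 features at day 14 and 5232 of 11509 at day 10. At day 14 no cuticle protein gene passed limma's test. Of the 20 tested, 0 had a Benjamini-Hochberg adjusted p under 0.05, where the share over all 7529 features was 0%, and 0 had an unadjusted p under 0.05, against 3.98% of all features (300). Their lowest adjusted p was 0.999. The same rule gave 1.42% of features higher and 2.56% lower. Fitted values lay above 0 for 14 of 20 (70%, against 49.3% of features) and below 0 for 6 (30%, against 50.7%), with a median of 0.06 against -0.00, and ran from -0.41 to 0.31. None exceeded 0.5 in size, against 1.45% of features. These p-values rest on a spread estimated over both days. With each group fitted alone, 2 of 20, Cpr67B and Cpr65Ax2, had an unadjusted p under 0.05 (limma), as did 887 of 7529 features. In that fit 0 of 20 had an adjusted p under 0.05, and 70 features did. Without replicate 2 of day 14, 10 of 20 lay below 0 in place of 6, so the count above 0 rests in part on that array.

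At the top of this range stood Cpr65Ax2, which encodes a Cpr protein of the Lcp65A cluster. Whether its spots separate it from its near-identical copy Cpr65Ax1 could not be checked, as spot sequences were not available. The ratios of Cpr65Ax2 at day 14 were 0.57 in replicate 2, 0.16 in replicate 3 and -0.05 in replicate 4, with none in replicate 1. The fitted value was 0.31 ± 0.15 (SE, 3 arrays). Arrays on both sides of 0 thus gave this value. At the bottom, the Cpr gene Cpr67B had -1.25, -0.17, 0.13 and -0.33 in replicates 1 to 4 and a fitted value of -0.41 ± 0.21. The array of replicate 1 was far below the others, and without it the fitted value was -0.15.

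The next members were nearer to 0 and had at least 1 array on the other side. Cpr50Ca had 0.17, -0.14, 0.63 and 0.19 (fitted 0.21 ± 0.14), and TwdlF, a Tweedle gene, had 0.11, -0.20, 0.51 and 0.13 (0.14 ± 0.14). Both were below 0 on replicate 2 alone, and both turn to -0.20 and -0.18 if swapped arrays had been turned before deposit. Cpr67Fa1, which has a near-identical neighbour Cpr67Fa2, had 0.14, 0.29, 0.19 and -0.06 (0.14 ± 0.16). TwdlM had 0.27, 0.74, 0.05 and -0.33 (0.18 ± 0.20). For both genes replicate 4 was the lowest and the only array below 0. Without replicate 3 the values of Cpr50Ca, TwdlF and Cpr67Fa1 were 0.12, 0.021 and 0.063. Without replicate 2 those of TwdlF and TwdlM were 0.24 and 0.011, and without replicate 4 that of TwdlM was 0.33.

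The remaining 14 genes tested at day 14 were within 0.13 of 0. Among Cpr genes, Cpr76Bd was at 0.12, Cpr47Ee and Cpr49Ae at 0.11, Cpr56F at 0.10, Cpr64Aa at 0.04, Cpr11B at 0.03, Cpr49Ac at 0.01, Cpr47Eb at -0.09 and Cpr12A at -0.12. Among Tweedle genes, TwdlN was at 0.08, TwdlG at 0.01, TwdlC at -0.08, TwdlE at -0.11 and TwdlB at -0.13. Under the other reading of the swapped arrays 5 of these 14 change direction, to 0.10 for Cpr12A, 0.013 for TwdlE, -0.036 for Cpr56F, -0.044 for Cpr49Ac and -0.11 for Cpr64Aa. By family, 10 of 13 Cpr genes lay above 0 (median 0.10) and 4 of 7 Tweedle genes (median 0.01). All measured arrays lay above 0 for 2 of the 20, Cpr47Eb and Cpr64Aa (10%, against 8.83% of features), and below 0 for none, against 9.62%. Both directions together made 10%, against 18.4%. Cpr47Eb had 0.09, 0.08 and 0.02 on its 3 arrays, while its fitted value was below 0 because the fit subtracts a dye effect estimated over both days. The same term puts the fitted value of TwdlN above 0 although its 3 arrays at day 14 average below it.

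**Figure D2:**
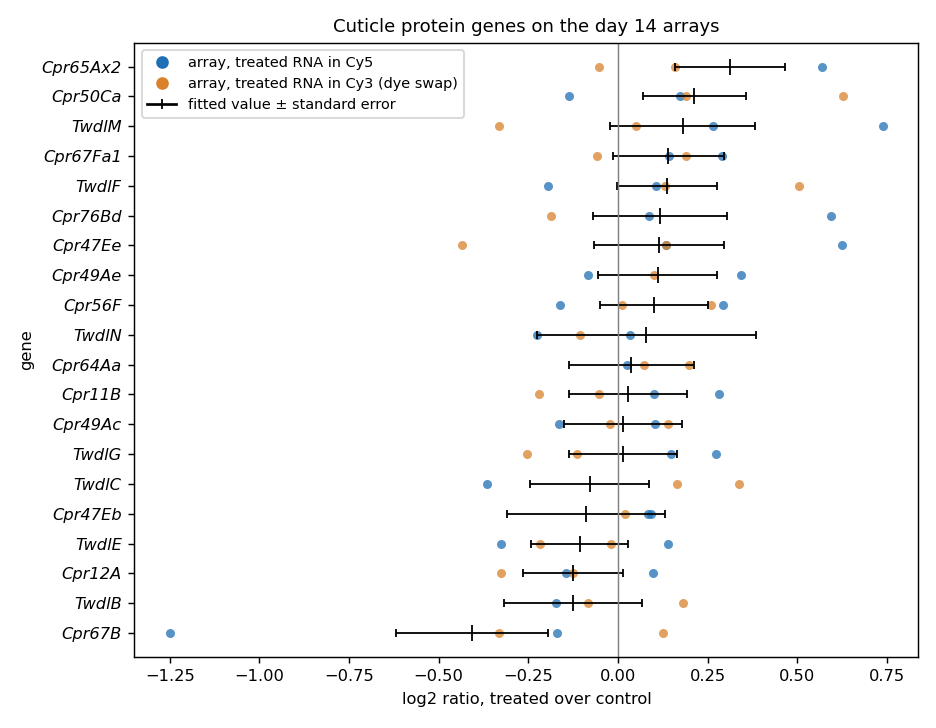
Log2 ratio of treated over control for each of the 20 cuticle protein genes with at least 3 values at day 14, ordered by fitted value. Coloured points are single arrays by dye orientation, and black ticks with bars are fitted values ± SE. Fitted values run from -0.41 for Cpr67B to 0.31 for Cpr65Ax2.

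The second comparison made the same contrast at the end of valproate feeding. At day 10 no cuticle protein gene passed the test either: 0 of 34 had an adjusted p under 0.05 (0% of all 11509 features), with members' adjusted p from 0.727 to 0.990. An unadjusted p under 0.05 was reached by 3 of 34 (8.82%), against 6.67% of all features (768). The higher ones were Cpr65Ax2 and Cpr72Ea (2 of 34, 5.88%, against 3.74%), and Cpr67Fa1 was lower (1 of 34, 2.94%, against 2.94%). Under the other reading of the swapped arrays 7 of 34 (20.6%, against 28.6% of features) reached it, 2 higher (5.88%, against 17.9%) and 5 lower (14.7%, against 10.7%). Fitted values lay above 0 for 12 of 34 (35.3%, against 56.4% of features) and below 0 for 22 (64.7%, against 43.5%), with a median of -0.09 against 0.04. They spread more widely than at day 14, from -0.77 to 0.74, and 6 of 34 (17.6%) exceeded 0.5 in size, against 7.19% of features.

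Cpr65Ax2 had the highest fitted value at day 10 as well. Its ratios were 1.00, 1.00 and 0.48 in replicates 1, 2 and 4, with no value in replicate 3, and the fitted value was 0.74 ± 0.16 (SE, 3 arrays; unadjusted p = 0.00241, adjusted p = 0.727, limma). It was the single one of the 34 genes tested that lay above 0 on all its day 10 arrays (2.94%, against 6.39% of features). Under the other reading of the swapped arrays its value was 0.33. Cpr72Ea, a Cpr gene beside Cpr72Ec, had -0.30, -0.15 and 1.46 in replicates 1, 2 and 4 and a fitted value of 0.62 ± 0.18 (3 arrays). Here the swapped array of replicate 4 alone was above 0. It weighs as much as the other two together because the fit balances dye orientations, and the fitted value turns to -0.84 if swapped arrays had been turned before deposit (adjusted p = 0.0586).

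Lower values at day 10 came with different array patterns. Cpr67Fa1 had -0.39, -0.02, -1.05 and -0.22 and a fitted value of -0.42 ± 0.16 (4 arrays). Every array was below 0, but its 2 spots differed by 2.13 in replicate 2, and without replicate 3 the value was -0.23 with an unadjusted p of 0.172. Cpr65Ec had -0.11, -0.79 and -0.64 in replicates 1 to 3 and a fitted value of -0.54 ± 0.23. Cpr49Ac had 0.16, -0.43 and -0.91 in replicates 1, 2 and 4 and a fitted value of -0.44 ± 0.21, which was -0.67 without replicate 1 and -0.088 without replicate 4. All 3 of these genes turn above 0 under the other reading of the swapped arrays, to 0.21, 0.094 and 0.28. Ccp84Ae (-0.26), Cpr97Eb (-0.34) and TwdlP were also below 0 on every measured array. With Cpr67Fa1 and Cpr65Ec that made 5 of 34 (14.7%), against 6.17% of features. Together with Cpr65Ax2 in the other direction, 6 of 34 (17.6%) kept to one side of 0, against 12.6%.

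Cpr47Eb split by dye. It had 1.26 and 1.04 on the arrays with treated RNA in Cy5, and -0.34 and -0.35 on the swapped arrays, with a fitted value of 0.40 ± 0.20, or 0.24 without replicate 1. If swapped arrays had been turned before deposit, it would be 0.75 ± 0.14 with an adjusted p of 0.0466 (limma). It was the only cuticle gene called in any of the settings tried. Under that reading 1 of 34 cuticle genes was called, and 304 of 11509 features, so calls were not particular to cuticle genes. Cpr67B had 0.69, -0.31 and 0.42 in replicates 1 to 3 and a fitted value of 0.34 ± 0.28, which was 0.053 without replicate 1 and 0.55 without replicate 2.

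Other Cpr genes were closer to 0. Above it were Cpr11B (0.30), Cpr50Cb (0.12), Cpr23B (0.09) and Cpr73D (0.01). Below it were Cpr97Ea and Cpr72Ec (both -0.23), Cpr57A and Cpr62Bb (both -0.17), Cpr100A and Cpr51A (both -0.13), Cpr49Ae (-0.11), Cpr62Bc (-0.06), and Cpr50Ca and Cpr47Ee (both -0.02). Of these, Cpr23B would be at -1.11 and Cpr49Ae at 0.039 under the other reading. Cpr72Ec encodes a known component of the corneal lens. Its ratios were -0.50, -0.83 and 0.20 in replicates 1, 2 and 4, so it too divided by dye. In all, 8 of 22 Cpr genes were above 0 and 14 below, with a median of -0.09.

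The 3 lowest fitted values at day 10 were those of Tweedle genes, each carried by 1 or 2 arrays. Under the other reading of the swapped arrays the order was Twdlbeta (-1.64), TwdlN (-1.14), Cpr23B (-1.11) and Cpr72Ea (-0.84), with TwdlP at -0.55. TwdlP had -0.52, -2.12 and -0.22 in replicates 1, 2 and 4 (fitted -0.77 ± 0.37), and its 2 spots in replicate 2 differed by 5.15. Twdlbeta had -3.10, -1.61 and 0.93 (-0.71 ± 0.35), with spots 4.70 apart in replicate 1. TwdlN had -1.93, -1.19 and 0.59 (-0.67 ± 0.35). In the last 2 genes the arrays with treated RNA in Cy5 were low and the swapped array was high. TwdlD, whose mutant gave the family its name, was at -0.35, TwdlM at -0.15, TwdlE at -0.04 and TwdlG at -0.03. TwdlT and TwdlL were both at 0.43, and TwdlF and TwdlW both at 0.17. Thus 4 of 11 Tweedle genes lay above 0 and 7 below, with a median of -0.04.

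**Figure D3:**
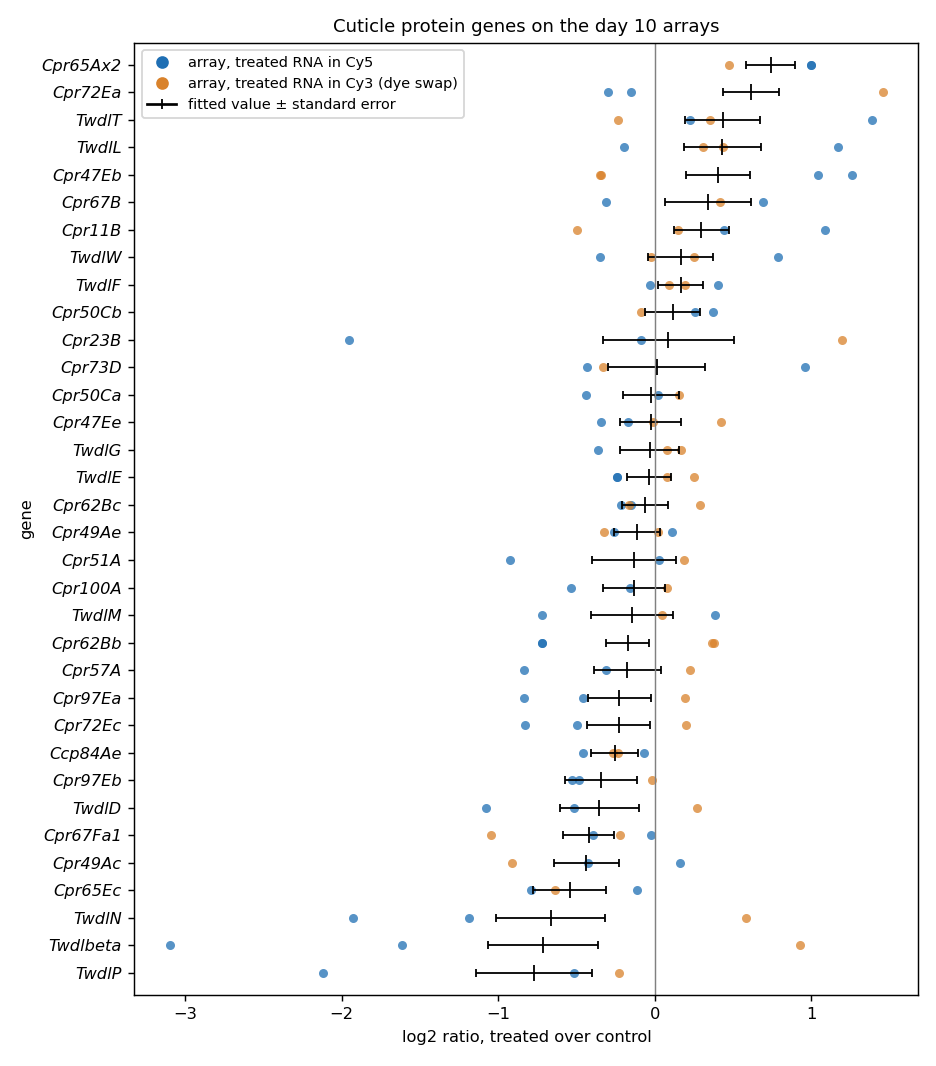
Log2 ratio of treated over control for each of the 34 cuticle protein genes with at least 3 values at day 10, ordered by fitted value, drawn as for day 14. Single arrays reach from -3.10 (Twdlbeta) to 1.46 (Cpr72Ea), and blue and orange points often lie on opposite sides of 0.

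The day 10 array medians of the cuticle genes had one sign as Cy5 over Cy3 and both signs as treated over control. Over the genes with a value, the median of treated over control was -0.27, -0.35, 0.25 and 0.08 in replicates 1 to 4 (mean -0.07 ± 0.29, SD, n = 4). Written as Cy5 over Cy3, all 4 medians were below 0, at -0.27, -0.35, -0.25 and -0.08, with 27 of 39, 30 of 39, 14 of 19 and 26 of 41 genes below 0. At day 14 the treated over control medians were 0.10, 0.10, 0.06 and -0.07 (mean 0.05 ± 0.08, SD, n = 4), and those of Cy5 over Cy3 were 0.10, 0.10, -0.06 and 0.07. Medians of all named genes were close to 0 on each array, as the centring sets them.

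Single cuticle genes were split by dye about as often as all features at day 10, but more of them were low in Cy5. At day 10, 14 of 34 (41.2%) had the arrays of one dye orientation on one side of 0 and those of the other on the opposite side, against 40.1% of features. Of these, 12 were low in Cy5 (35.3%, against 19.2% of features): Cpr100A, Cpr23B, Cpr57A, Cpr62Bb, Cpr72Ea, Cpr72Ec, Cpr97Ea, TwdlD, TwdlE, TwdlG, TwdlN and Twdlbeta. Cpr47Eb and Cpr50Cb were high in Cy5 (5.88%, against 21%). At day 14 the split held for 4 of 20 (20%, against 27.7%), with Cpr11B, Cpr76Bd and TwdlG high in Cy5 (15%, against 12.7%) and TwdlC low (5%, against 15%). The fitted dye term was below 0 for 22 of 40 cuticle genes (55%, against 50.1% of features) and passed an adjusted p of 0.05 in none of them and in none of 12619 features. The part of the dye in the day 10 values was not tested beyond this term. If the swapped arrays had been turned before deposit, 20 of 34 cuticle genes lay below 0 at day 10 (median -0.18, against 0.00 for all features) and 9 of 20 at day 14 (median 0.04).

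**Figure D4:**
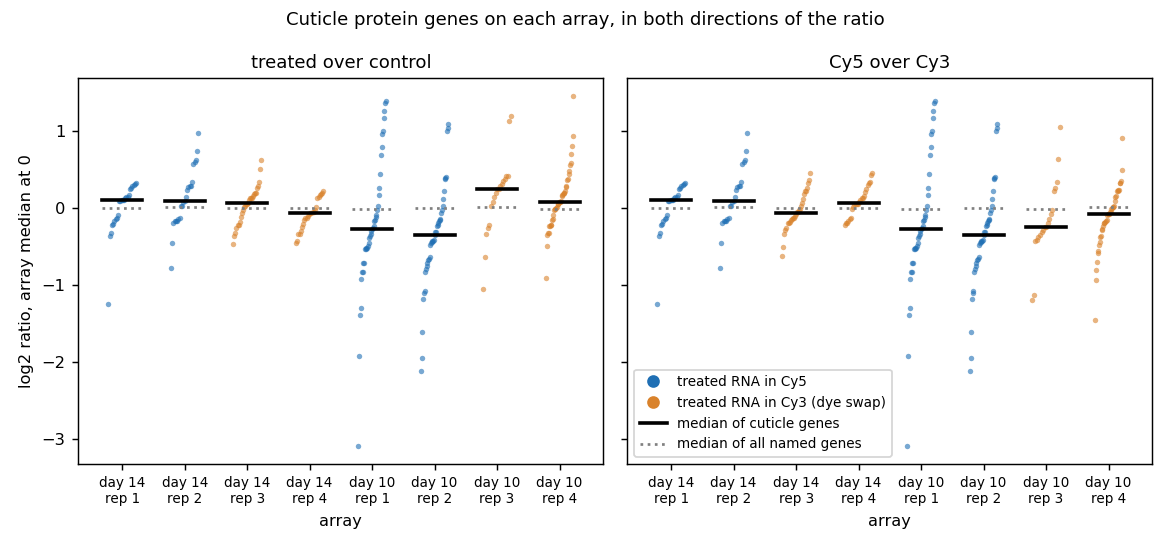
Centred log2 ratios of the cuticle protein genes on each array (points), with their median (black line) and that of all named genes (dotted line), as treated over control on the left and as Cy5 over Cy3 on the right; day 14 arrays stand left of day 10 arrays. The 4 day 10 medians lie below 0 as Cy5 over Cy3 (-0.08 to -0.35) and on both sides of 0 as treated over control.

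The count below 0 at day 10 also depended on single arrays. It was 13 of 26 without replicate 1 and 12 of 26 without replicate 2. It was 14 of 25 without replicate 4 and 21 of 32 without replicate 3. The number tested fell because genes left with too few arrays, or with a single dye orientation, could not be fitted. Duplicate spots gave a measure of technical spread. Over 241 spot pairs of cuticle genes the median difference between both spots on an array was 0.23, against 0.18 over all named genes. Differences over 1 occurred in 0 of 100 pairs at day 14, against 1.46% of pairs of all named genes, and in 14 of 141 pairs at day 10 (9.93%, against 5.68%).

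The third comparison set the day 14 ratio against the day 10 ratio of the 14 genes measured in both. None passed the test: 0 of 14 had an adjusted p under 0.05 (0% of 6419 features), and their adjusted p was at least 0.773. An unadjusted p under 0.05 was reached by 2 of 14 (14.3%, against 6.26% of features, 402), 1 higher (7.14%, against 2.46%) and 1 lower (7.14%, against 3.8%). The difference, day 14 minus day 10, was above 0 for 8 (57.1%, against 45.4%) and below 0 for 6 (42.9%, against 54.6%), and it exceeded 0.5 in size for 3 (21.4%, against 9.22%), Cpr67Fa1, Cpr67B and TwdlN. It had a median of 0.09 against -0.03.

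Cpr67Fa1 had a fitted ratio of 0.14 at day 14 and -0.42 at day 10, a difference of 0.56 ± 0.22 (unadjusted p = 0.0266). Its day 14 arrays overlapped the day 10 arrays, since replicate 4 of day 14 was at -0.06 and replicate 2 of day 10 at -0.02. Cpr67B had -0.41 at day 14 and 0.34 at day 10, a difference of -0.75 ± 0.33 (unadjusted p = 0.0441), again with overlapping arrays. Without replicate 3 of day 10 the Cpr67Fa1 difference was 0.37 (unadjusted p = 0.0853), and the Cpr67B difference was -0.46 without replicate 1 of day 10 and -0.44 without replicate 1 of day 14. Under the other reading of the swapped arrays the Cpr67Fa1 difference was -0.14 and the Cpr67B difference -0.33.

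For the other genes the day 14 and day 10 values were closer relative to their error. Cpr65Ax2 was at 0.31 at day 14 and 0.74 at day 10 (difference -0.43 ± 0.23). TwdlN had -0.23, 0.03 and -0.10 in replicates 1, 2 and 4 of day 14, inside the range of its day 10 arrays, and a difference of 0.74 ± 0.42. That difference was 0.33 without replicate 1 of day 10, 0.47 without replicate 2 of day 14 and 1.46 without replicate 4 of either day. Cpr49Ac had 0.10, -0.16, -0.02 and 0.14 at day 14 and a difference of 0.45 ± 0.26, which was 0.69 without replicate 1 of day 10, 0.10 without its replicate 4, and turns to -0.33 under the other reading. Cpr47Eb differed by -0.49 ± 0.29, by -0.29 without replicate 1 of day 10 and by -1.06 without replicate 3 of day 14, with its day 14 arrays between its day 10 arrays with treated RNA in Cy5, which were high, and the swapped ones, which were low. Differences of the remaining 8 genes were Cpr11B -0.27, TwdlE -0.07 (0.22 under the other reading), TwdlF -0.03, TwdlG 0.04, Cpr47Ee 0.14, Cpr49Ae 0.22, Cpr50Ca 0.24 and TwdlM 0.33.

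**Figure D5:**
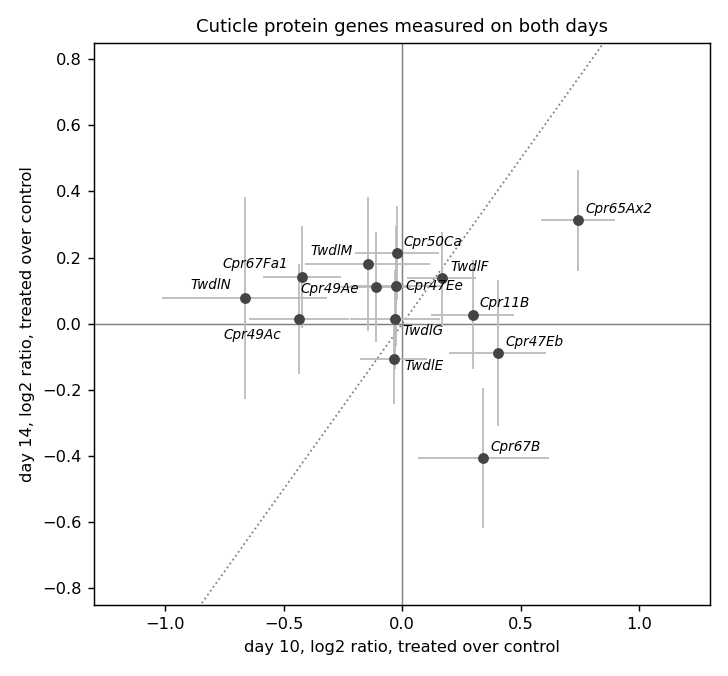
Fitted log2 ratio of treated over control at day 14 (vertical) and day 10 (horizontal) for the 14 cuticle protein genes measured in both, with SE bars; the dotted line marks equal values. Cpr65Ax2 lies above 0 on both axes, and Cpr67Fa1 and Cpr67B lie on opposite sides of the dotted line.

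Cuticle genes often stand in runs of neighbours, and in the RefSeq annotation 10 runs held at least 2 genes named by the array. The longest of them in named genes, from TwdlM to TwdlD with 12 genes, had 7 named. At day 14, 3 of these were tested (2 above 0, 1 below, from -0.13 to 0.18), and at day 10, 5 (1 above, 4 below, from -0.77 to 0.43). Neighbours did not share a direction throughout: at day 10 Cpr72Ea was at 0.62 and Cpr72Ec at -0.23, while Cpr97Ea and Cpr97Eb, and Cpr62Bb and Cpr62Bc, were below 0 as pairs. TwdlF and TwdlG were at 0.14 and 0.01 at day 14 and on opposite sides of 0 at day 10.

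Genes for the other components of the cuticle passed the test in no comparison, 0 in each of 5 lists. Their counts above 0 stand beside 49.3% of all features above 0 at day 14 and 56.4% at day 10. In the list for chitin synthesis and assembly, 2 of 4 genes tested lay above 0 at day 14 and 4 of 5 at day 10. Gfat2, which starts the hexosamine route to the chitin precursor, was at -0.14 ± 0.14 at day 14 and 0.49 ± 0.18 at day 10, a difference of -0.63 ± 0.23 (unadjusted p = 0.0184, adjusted p = 0.773). Gnpnat, an enzyme of the same route, was at 0.19 ± 0.18 at day 14, and mmy, its last enzyme, at 0.17 ± 0.16 at day 10. The counts of this list also hold nes, a gene outside chitin synthesis. It was at 0.04 ± 0.24 at day 14 and -0.04 ± 0.26 at day 10, and differed by 0.09 ± 0.33. Of chitinases and chitin deacetylases, 2 of 6 lay above 0 at day 14 and 8 of 12 at day 10. The chitinase-like Idgf6 (-0.47 ± 0.22) and the chitinase Cht6 (-0.24 ± 0.14) had the smallest p at day 14, and Cht2 (0.48 ± 0.19) and Idgf5 (0.39 ± 0.21) at day 10. The differences with the smallest p were those of Idgf6 (-0.54 ± 0.31) and Cht6 (-0.39 ± 0.22).

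Tanning and pigment genes, which harden and darken the coat, lay above 0 for 2 of 8 at day 14 and 6 of 13 at day 10. Yellow-h, of the yellow family, was at -0.25 ± 0.12 at day 14 and, below 0 on all 4 arrays, at -0.39 ± 0.12 at day 10 (difference 0.14 ± 0.17). Yellow-d was at 0.24 ± 0.17 at day 14, yellow-f2 at 0.64 ± 0.31 at day 10, and Pu, which makes pterin precursors, differed by -0.22 ± 0.20. Other cuticle and apical matrix proteins lay above 0 for 4 of 9 at day 14 and 8 of 11 at day 10. Of these, Peritrophin-A, a chitin-binding protein, was at 0.28 ± 0.17 and tyn at -0.16 ± 0.16 at day 14, and Vajk4 was at 0.81 ± 0.27 and the chitin-binding obst-E at 0.45 ± 0.22 at day 10. Obst-E differed by -0.53 ± 0.28 and Vajk1 by -0.30 ± 0.25. Genes of the waxy cuticular hydrocarbons lay above 0 for 1 of 4 at day 14 and 6 of 7 at day 10. The fatty acid synthase FASN3 was at 0.30 ± 0.13 and the desaturase Desat1 at -0.24 ± 0.13 at day 14, with differences of 0.26 ± 0.18 and -0.27 ± 0.18, while Hacd1 (0.13 ± 0.19) and FASN1 (0.10 ± 0.18) were close to 0 at day 10. An unadjusted p under 0.05 was reached in these lists by 1 of 31 genes at day 14 (FASN3, 3.23%, against 3.98% of features), by 3 of 48 at day 10 (Gfat2, yellow-h and Vajk4, 6.25%, against 6.67%) and by 1 of 27 in the difference (Gfat2, 3.7%, against 6.26%).

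Markers of cell types and tissues were 0 called in each of 9 lists. The lists were not limited to the head, as they include gut and male reproductive tract. At day 14 the medians of the 8 lists with a tested gene ran from -0.23 (3 glial markers) to 0.07 (3 gut markers). At day 10 those of the 9 lists ran from -0.31 (3 genes of the male reproductive tract) to 0.26 (4 of haemocytes). The median of epidermal markers, the cells that secrete cuticle, was 0.03 at day 14 (2 genes) and 0.11 at day 10 (3 genes). The genes tested were Gasp and obst-A, with verm at day 10 alone. All of them also stand in the cuticle lists above, so this is no separate measure. An unadjusted p under 0.05 was reached by 3 of 34 markers at day 14 (8.82%, against 3.98% of features), 2 of 51 at day 10 (3.92%, against 6.67%) and 1 of 31 in the difference (3.23%, against 6.26%). At day 14 these were the fat body genes sxe2 (-0.67 ± 0.13) and Cyp4d21 (-0.77 ± 0.18) and the glial alrm (-0.51 ± 0.19), each below 0 on every measured array. At day 10 they were Cyp4d21 (-0.54 ± 0.20), below 0 on all 4 arrays, and the glial Mdr65 (-0.76 ± 0.26), above 0 on 1 of its 3 arrays. In the difference it was the gut protease gene Jon25Biii (0.91 ± 0.36). Other markers of these lists did not all go the same way. Of fat body markers, 2 of 8 lay above 0 at day 14 (median -0.14) and 5 of 9 at day 10 (median 0.09). Of glial markers, 0 of 3 lay above 0 at day 14 and 2 of 8 at day 10 (median -0.13). In the difference, 1 of 3 gut markers lay above 0 (median -0.19). The part of these cell types in the cuticle gene values was not tested.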

How the data were processed

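The deposited table holds 1 log2 ratio per spot (unit judged from the values) for each of 8 arrays of head RNA. Per the labels' protocols and GEO's design text, the authors scanned slides on a GenePix 4000A scanner, quantified them with GenePix Pro 6.0, ratio-normalised with Acuity 4.0 while ignoring spots under 100 intensity units, and kept spots with under 3 percent saturated pixels, an R2 of at least 0.6 and a signal-to-noise ratio of at least 3. The genome build is not given in the sources used here. Here 2 values at the cap of the ratio were left out, each array was centred on its median, swapped arrays were turned and spots of a gene averaged. Swapped arrays were treated as unturned at deposit because of the medians of 48 print blocks. Those of named spots on one array were correlated with those of unnamed spots on another of opposite orientation, both ways for each pair. All 32 correlations were above 0 (r 0.07 to 0.84). Over genes and rows, deposited values of opposite orientation in a group correlated at -0.02 to 0.45, and of the same orientation at 0.19 to 0.50. Gene names came from the platform annotation, updated to RefSeq (Release 6 plus ISO1 MT; 14894 of 15116 spots naming 1 gene matched). All 8 arrays entered one limma 3.58.1 fit (R 4.3.3) with group means and a gene-wise dye term, moderated p-values and Benjamini-Hochberg adjustment over all features (threshold 0.05). Features needed at least 3 of 4 arrays per group compared, and missing arrays were dropped feature by feature. The code was tested on simulated data. The precision is limited by the number of arrays. Alternatives covered centring, print blocks, scaling, swap direction, dye term, separate fits, missing values, spot averaging, replicate block, capped values and left-out arrays. Members and lists were chosen with earlier results of these data known. The text names every member with 3 values in a group, gives array values for the 6 smallest unadjusted p per comparison and for Cpr65Ax2, Cpr72Ea and Cpr67B, and names the 2 smallest p per other cuticle list; the cell type markers with an unadjusted p under 0.05 and array values of further Tweedle genes, Cpr47Eb at day 14 and Cpr72Ec were added after their values were seen. A name that matched a wrong gene as a synonym was taken out of the male reproductive tract list.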

Additional observations from a re-analysis of the deposited data

Results flagged for a closer look

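In each group of 4 arrays the highest or lowest value was set against the others, over 29 such groups, and chance singles out about 1 in 20. At day 10, Cpr62Bc had 0.29 in replicate 3, against -0.15, -0.22 and -0.16 in replicates 1, 2 and 4, so 1 array lay far above the others. The number of cuticle protein genes with a value was 19 on the day 10 array of replicate 3, against 39, 39 and 41 on the arrays of replicates 1, 2 and 4. Without both arrays numbered 3, a choice made after seeing the data, 8 of 20 cuticle genes lay below 0 at day 14 and 22 of 32 at day 10.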

How the results depend on the processing

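Single values were followed for 11 genes in 19 gene and comparison pairs. Across the alternatives, no cuticle gene passed the test apart from Cpr47Eb at day 10 (0.75), when swapped arrays were taken as turned before deposit. That reading gave 304 calls over 11509 features at day 10. Among the pairs followed it turned Cpr72Ea (-0.84), Cpr67Fa1 (0.21), Cpr65Ec (0.094) and Cpr49Ac (0.28) at day 10, Cpr50Ca (-0.20) and TwdlF (-0.18) at day 14, and the differences of Cpr67Fa1 (-0.14) and Cpr49Ac (-0.33). The other 371 values of these pairs under an alternative kept their direction and side of the threshold. Cuticle genes outside these pairs changed direction too under that reading, as the report gives. Calls over all features at day 14 were 70 with each group fitted alone and 28 with arrays scaled to one spread. Cuticle genes below 0 at day 14 were 10 of 20 without centring. With values needed on all 4 arrays they were 3 of 12 at day 14, 7 of 13 at day 10 and 3 of 5 in the difference, where fewer genes were tested. Leaving out 1 array at a time gave 6 to 10 genes below 0 at day 14, 12 to 23 at day 10 and 5 to 8 in the difference, with 0 to 1 calls over all features at day 10 and in the difference and 0 at day 14. The cause was not tested. Medians of the cuticle genes ranged from -0.02 to 0.11 at day 14, -0.18 to 0.02 at day 10 and -0.05 to 0.22 in the difference.

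The replicate numbers were not taken to pair the arrays of both days: deviations of same-numbered arrays correlated at 0.06, 0.42, 0.39 and 0.10, and 2 of 4 day 10 arrays correlated best with their own number. A fit with the replicate number as a block gave 0 calls in each comparison, with 3 of 14 cuticle genes below 0 at day 14 and 8 of 16 at day 10. Cpr65Ec and Cpr72Ea could not be fitted in it.

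Limits are the 4 arrays per group, the unstated direction of the ratio and the lack of brightness values, so that signal over background is unknown and blanks cannot be ranked.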
